A study of Mus musculus with 16 samples.

Results

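The genes described here are the 7 mouse genes for inhibitors of cyclin-dependent kinases, taken from both deposited gene count tables by symbol: 3 of the Cip/Kip family (Cdkn1a, Cdkn1b and Cdkn1c, which encode p21, p27 and p57) and 4 of the Ink4 family (Cdkn2a, Cdkn2b, Cdkn2c and Cdkn2d, which encode p16Ink4a together with p19Arf, p15Ink4b, p18Ink4c and p19Ink4d). They are 7 of the 22114 genes in each table, and all 7 passed the filter on low counts in both. Both experiments used DN3 thymocytes, immature T-cell progenitors that lack CD4 and CD8 and are CD25+ and CD44-, from mice backcrossed to C57BL/6J for 10 generations. In the first experiment, total DN3 cells of 6-week-old mice came from 4 genotypes: wild-type (WT, 3 libraries), p21-deficient (p21-/-, 2 libraries), CD2-Lmo2 transgenic (Lmo2Tg, 2 libraries) and Lmo2Tg;p21-/- (2 libraries). In the second, DN3 cells of 2-month-old Lmo2Tg mice that also carried 1 copy of the doxycycline-inducible TetOP-H2B-GFP knock-in were given doxycycline for 6 weeks and then chased without it for 2 weeks, and cells that kept the histone-bound label (GFPhi, 3 libraries) were sorted from cells that had diluted it (GFPlo, 3 libraries). The Lmo2 oncogene was driven in T-lineage cells by CD2 regulatory sequence, all GFPhi and GFPlo libraries carry it, and per the study's methods each RNA sample pooled 3 to 5 mice.

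Cip/Kip proteins bind complexes of a cyclin and its kinase, and p21 is the best known product of p53 signalling in the cell cycle. Ink4 proteins instead bind CDK4 and CDK6 alone and keep them from D-type cyclins, which leaves the retinoblastoma protein in its active, E2F-binding form. The Cdkn2a locus also encodes p19Arf from a second start site and another reading frame, and p19Arf holds back MDM2, the ubiquitin ligase that destroys p53. In the thymus, DN3 cells pass from a quiescent state into rapid division as they form a pre-T-cell receptor, and this family of inhibitors acts at that step.

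Depth was 26861394 to 31106213 counted reads a library in the GFP experiment and 13864936 to 16837667 in the genotype experiment. Levels are given as CPM, counts scaled to a common library total with TMM within a table, and the 2 tables were scaled separately. The 14 DN3 markers on the list used here were counted in every library. Lmo2, a check of the transgene label, was at 0.0636 to 0.306 CPM in the WT and p21-/- libraries and at 41.4 to 107 CPM in the 4 transgenic libraries. GFPhi replicate 3 stood apart: Lmo2 was at 285 CPM there against 53.8 and 29.5 CPM in GFPhi replicates 1 and 2, so each GFP result on an inhibitor gene is given with and without it. That library was also the lowest of the GFP libraries for Cdkn1a and for Zmat3, another p53 target. It was set apart after its levels were seen, so fits without it are a description. The cells counted in bulk RNA are mixed, and a change in the share of cells that express a gene cannot be told apart from a change in RNA per cell.

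Cdkn1a and Cdkn2a have alternative start sites, and Cdkn2a and Cdkn2b were nearly absent without the transgene, so the sequence just before their start sites is shown first. The windows hold the 250 bases before each RefSeq start site in GRCm38.p6, read 5′ to 3′ on the gene's own strand, and capitals mark matches to GGGCGG or its reverse complement, the core of the GC box bound by Sp1.
Cdkn2a, start of the Arf transcript, chr4:89294620-89294869, minus strand: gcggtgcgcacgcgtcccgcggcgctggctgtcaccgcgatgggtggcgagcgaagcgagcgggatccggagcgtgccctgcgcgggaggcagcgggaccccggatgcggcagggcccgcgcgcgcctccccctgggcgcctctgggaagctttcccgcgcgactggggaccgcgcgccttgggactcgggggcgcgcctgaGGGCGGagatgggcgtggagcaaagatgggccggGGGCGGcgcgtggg
Cdkn2a, start of the Ink4a transcript, chr4:89282193-89282442, minus strand: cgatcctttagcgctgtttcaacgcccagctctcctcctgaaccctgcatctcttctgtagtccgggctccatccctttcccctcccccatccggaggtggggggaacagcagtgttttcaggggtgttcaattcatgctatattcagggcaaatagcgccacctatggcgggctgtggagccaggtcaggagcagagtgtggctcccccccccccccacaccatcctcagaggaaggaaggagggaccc
Cdkn2b, chr4:89311033-89311282, minus strand: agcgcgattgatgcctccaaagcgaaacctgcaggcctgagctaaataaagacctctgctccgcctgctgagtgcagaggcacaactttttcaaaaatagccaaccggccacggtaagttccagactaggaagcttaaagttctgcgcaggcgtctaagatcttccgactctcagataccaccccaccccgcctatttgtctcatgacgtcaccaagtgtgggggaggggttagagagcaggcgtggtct
Cdkn1a, upstream start, chr17:29090729-29090978, plus strand: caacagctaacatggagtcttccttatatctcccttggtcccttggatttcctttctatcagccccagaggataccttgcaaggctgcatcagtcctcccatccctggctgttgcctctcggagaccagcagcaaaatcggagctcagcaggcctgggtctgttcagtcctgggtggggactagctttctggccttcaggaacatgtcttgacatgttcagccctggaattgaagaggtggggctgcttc
Cdkn1a, downstream start, chr17:29093519-29093768, plus strand: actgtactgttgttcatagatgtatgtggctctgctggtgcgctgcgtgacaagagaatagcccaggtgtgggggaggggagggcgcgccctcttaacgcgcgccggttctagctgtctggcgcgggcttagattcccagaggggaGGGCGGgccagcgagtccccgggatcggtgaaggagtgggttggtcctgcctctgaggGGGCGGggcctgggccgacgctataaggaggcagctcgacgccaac
The window before the Arf start was 78.4% G and C with 40 CpG dinucleotides, whereas the window before the Ink4a start of the same gene was 60% G and C with 7. Cdkn2b, the neighbour of Cdkn2a, had 12 CpG. The upstream start of Cdkn1a had 2 CpG and the downstream start 19, and the median over 32851 RefSeq promoter windows of this length was 6. GGGCGG was found in 5 of the 9 windows of the 6 inhibitor genes matched, against 32.7% of all windows. CANNTG, the E box read by basic helix-loop-helix factors, was found in 2 of the 9 (the downstream start of Cdkn1a and Cdkn2b), against 66.2% of all windows, and no match of one motif overlapped a match of the other. Counts were made per gene, so reads from the 2 starts of Cdkn1a, or from p16Ink4a and p19Arf, could not be separated.

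Cdkn1a (chromosome 17, 29090976 to 29100727, plus strand, GRCm38) was examined first because it is the deleted gene. In the WT libraries it was at 36.5, 37.5 and 49.0 CPM. The libraries labelled p21-/- had 14.3 and 17.7 CPM, from 244 and 280 counts. In Lmo2Tg it was at 32.8 and 26.3 CPM, and in the libraries labelled Lmo2Tg;p21-/- at 4.35 and 3.50 CPM, from 61 and 58 counts. No 2 of the 4 groups overlapped, and both libraries of each deficient genotype were below every library of its p21-sufficient counterpart. The reads left in the libraries labelled p21-/- amounted to 39.0% of the WT mean, which is -1.36 on the log2 scale (SE 0.169, edgeR adjusted p = 0.00821). In those labelled Lmo2Tg;p21-/- 13.3% of the Lmo2Tg mean was left, which is -2.92 on the log2 scale (SE 0.214, adjusted p = 9.08e-05). The residual level was therefore lower with the transgene than without it, and the difference between the 2 log2 fold changes was -1.56 (SE 0.271, adjusted p = 0.0319), past the threshold on all 9 libraries. That difference lost its call in 7 of 9 fits that left out 1 library (adjusted p 0.0124 to 0.130), holding without p21-/- replicate 1 or Lmo2Tg replicate 3 alone, and under limma-voom (adjusted p = 0.0634), and the p21-/- against WT call was lost without p21-/- replicate 1 (adjusted p = 0.0934) or replicate 2 (adjusted p = 0.0555). The part of Cdkn1a removed in the p21-/- allele is not given in the sources used here, and gene counts do not say which exons the residual reads cover. A 273 bp stretch of its exons is also annotated on the opposite strand.

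Among all genes tested, 0.0591% were called lower and 0.0507% higher in p21-/- against WT, and 3.59% lower and 3.35% higher in Lmo2Tg;p21-/- against Lmo2Tg. Each of these comparisons called 1 of the 7 inhibitor genes, Cdkn1a itself. Compensation in RNA by the other 6 genes would appear as higher levels in the deficient libraries. None of the 6 was called higher in either comparison by edgeR, DESeq2 or limma-voom. In p21-/- against WT, the edgeR intervals allowed rises up to 0.42 (Cdkn1b), 0.22 (Cdkn2d), 0.58 (Cdkn2c) and 1.77 (Cdkn1c) on the log2 scale. Cdkn2a and Cdkn2b had 0 to 3 counts a library there, too few to give a fold. In Lmo2Tg;p21-/- against Lmo2Tg, the highest upper limit was 0.73, for Cdkn2c. Compensation at the protein level was not tested. At an unadjusted p below 0.05 in edgeR, 1 of the 7 genes passed in the first comparison, where 3.3% of all genes did. In the second, where 25.5% of all genes did, 4 of the 7 passed: Cdkn1a, Cdkn1c, Cdkn2b and Cdkn2d, all lower. Cdkn1a is the deleted gene, so its fall was set by the design. Cdkn1c rested on 65 counts in Lmo2Tg against 37, and Cdkn2b on 42 against 18. The share of all genes lower at that p was not counted, so this count is a description. The 2 p21-loss comparisons use separate libraries, whereas each transgene comparison below shares libraries with both of them.

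**Figure D1:**
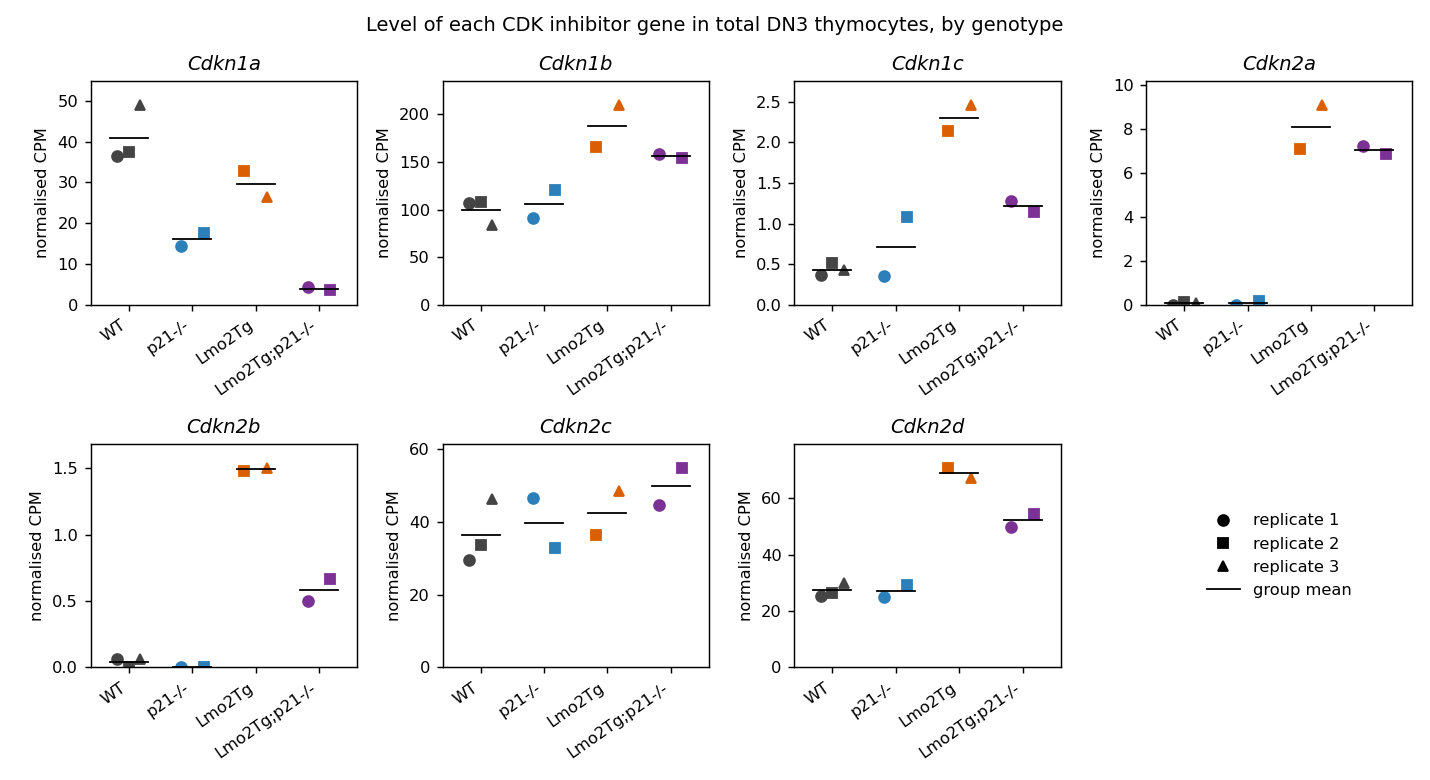
Normalised CPM (linear axis from 0) of the 7 CDK inhibitor genes in each of the 9 total DN3 libraries, with 1 panel per gene, genotypes on the x axis, marker shape for the replicate number and a black line for the group mean. Cdkn1a fell from a mean of 41.0 in WT to 3.93 in Lmo2Tg;p21-/-, whereas Cdkn2a was between 6.88 and 9.09 in the 4 transgenic libraries and at most 0.190 in the other 5.

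Cdkn1b (chromosome 6, 134920401 to 134925513) encodes p27, the inhibitor of cyclin E and CDK2 that accumulates in resting lymphocytes. Its level was 107, 108 and 83.3 CPM in WT, 91.5 and 121 CPM in p21-/-, 165 and 210 CPM in Lmo2Tg, and 158 and 154 CPM in Lmo2Tg;p21-/-. All 4 transgenic libraries were above all 5 others, and the WT and p21-/- groups overlapped. Its log2 fold change was 0.09 between p21-/- and WT (95% interval -0.23 to 0.42, adjusted p = 0.984) and -0.27 between Lmo2Tg;p21-/- and Lmo2Tg (95% interval -0.62 to 0.09, adjusted p = 0.327). With the transgene it rose by 0.92 on the log2 scale against WT (SE 0.144, adjusted p = 0.000710). On the p21-/- background the rise was 0.56 (SE 0.161, adjusted p = 0.0230), a call that was lost without p21-/- replicate 1 (adjusted p = 0.162) or Lmo2Tg;p21-/- replicate 1 (0.117) or 2 (0.0662).

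Cdkn1c (chromosome 7, 143458339 to 143461050) encodes p57, an imprinted gene linked to quiescence of stem cells, and it was close to the limit of detection. The WT libraries had 0.368, 0.509 and 0.423 CPM, those labelled p21-/- 0.352 and 1.08 CPM, Lmo2Tg 2.14 and 2.46 CPM, and Lmo2Tg;p21-/- 1.28 and 1.15 CPM. Both Lmo2Tg libraries were above all others, and p21-/- replicate 1 was below every WT library whereas replicate 2 was above. Its log2 fold change in Lmo2Tg against WT was 2.39 (SE 0.410), from 65 counts against 21, and as no WT library reached the filter level of 0.630 CPM the gene was tested through the groups where it was high, so this value is a description. Between Lmo2Tg;p21-/- and Lmo2Tg the log2 fold change was -0.92 (95% interval -1.80 to -0.04, adjusted p = 0.177), which missed the threshold. Between Lmo2Tg;p21-/- and p21-/- it was 0.78 (adjusted p = 0.223). Without p21-/- replicate 2 it was 1.76, a description, since the 1 p21-/- library left was below the filter level. An annotated antisense gene overlaps 625 bp of its exons, and how strand was treated in this table is not given in the sources used here.

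Cdkn2a (chromosome 4, 89274471 to 89294653, minus strand) showed the widest contrast. It had 0, 2 and 1 counts in the WT libraries and 0 and 3 counts in those labelled p21-/-. In Lmo2Tg it had 96 and 133 counts, 7.10 and 9.09 CPM, and in Lmo2Tg;p21-/- 101 and 114 counts, 7.21 and 6.88 CPM. The transgenic groups stood clear of the others and overlapped each other. Summed over libraries and scaled for depth, the Lmo2Tg level was 132 times the WT level, with an exact 95% counting interval of 44.5 to 643, and the Lmo2Tg;p21-/- level was 77.0 times the p21-/- level, with an interval of 26.0 to 376. No WT or p21-/- library reached the filter level of 0.630 CPM, so the gene was tested through the transgenic groups alone and these ratios are given as a description with no p. Loss of p21 on the transgenic background moved it by -0.20 on the log2 scale (95% interval -0.87 to 0.46, adjusted p = 0.718). With 0 to 3 counts a library, no fold is given for p21-/- against WT: 3 counts, the limit that a count of 0 allows, equal 0.176 to 0.222 CPM here.

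Cdkn2b (chromosome 4, 89306299 to 89311039, minus strand), the TGF-beta responsive neighbour of Cdkn2a, followed the same split at lower counts. It had 1, 0 and 1 counts in WT and 0 and 0 in p21-/-, against 20 and 22 counts in Lmo2Tg and 7 and 11 in Lmo2Tg;p21-/-. Only the transgenic libraries were above the floor of 3 counts. The Lmo2Tg level was 36.2 times that of WT (exact 95% counting interval 9.43 to 309, from 42 counts against 2). The Lmo2Tg;p21-/- level was 6.45 times that of p21-/- when p21-/- was set to the floor of 3 counts over the group. That value leaves out counting error in the 18 counts of Lmo2Tg;p21-/-. These values too are a description, since the gene passed the filter through the transgenic libraries. At 0.499 and 0.664 CPM, the Lmo2Tg;p21-/- libraries were below both Lmo2Tg libraries, of which the lower had 1.48 CPM, a log2 fold change of -1.33 (95% interval -2.29 to -0.38) that missed the threshold (adjusted p = 0.0922).

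Cdkn2c and Cdkn2d, the other Ink4 genes, differ from the first pair in being counted in every library. Cdkn2c (chromosome 4, 109660876 to 109667189), whose product p18 restrains thymocyte division, was at 29.3, 33.6 and 46.1 CPM in WT, 46.6 and 32.9 CPM in p21-/-, 36.3 and 48.3 CPM in Lmo2Tg, and 44.7 and 54.8 CPM in Lmo2Tg;p21-/-. Neighbouring groups overlapped, and the gene was called in none of the 5 genotype contrasts by edgeR, DESeq2 or limma-voom. Its log2 fold change in Lmo2Tg against WT was 0.22 (95% interval -0.24 to 0.67, adjusted p = 0.434). Cdkn2d (chromosome 9, 21288410 to 21291407), which encodes p19Ink4d, was at 25.5, 26.3 and 30.1 CPM in WT and 24.8 and 29.4 CPM in p21-/-, but at 70.8 and 67.1 CPM in Lmo2Tg and 49.7 and 54.6 CPM in Lmo2Tg;p21-/-. These 4 transgenic libraries were above the other 5, and the 2 transgenic groups did not overlap. Against WT it rose by 1.34 on the log2 scale in Lmo2Tg (SE 0.102, adjusted p = 5.15e-06), and against p21-/- by 0.95 in Lmo2Tg;p21-/- (SE 0.114, adjusted p = 0.000135). Between Lmo2Tg;p21-/- and Lmo2Tg its log2 fold change of -0.40 (SE 0.110) was at the edge of the threshold: the adjusted p was 0.0540 in the main test and 0.0346 to 0.0494 with RLE size factors, no filter, a filter of 1 CPM, DESeq2 or limma-voom, but 0.0637 in a fit of the 2 groups alone and 0.0861 to 0.289 without 1 library at a time.

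**Figure D2:**
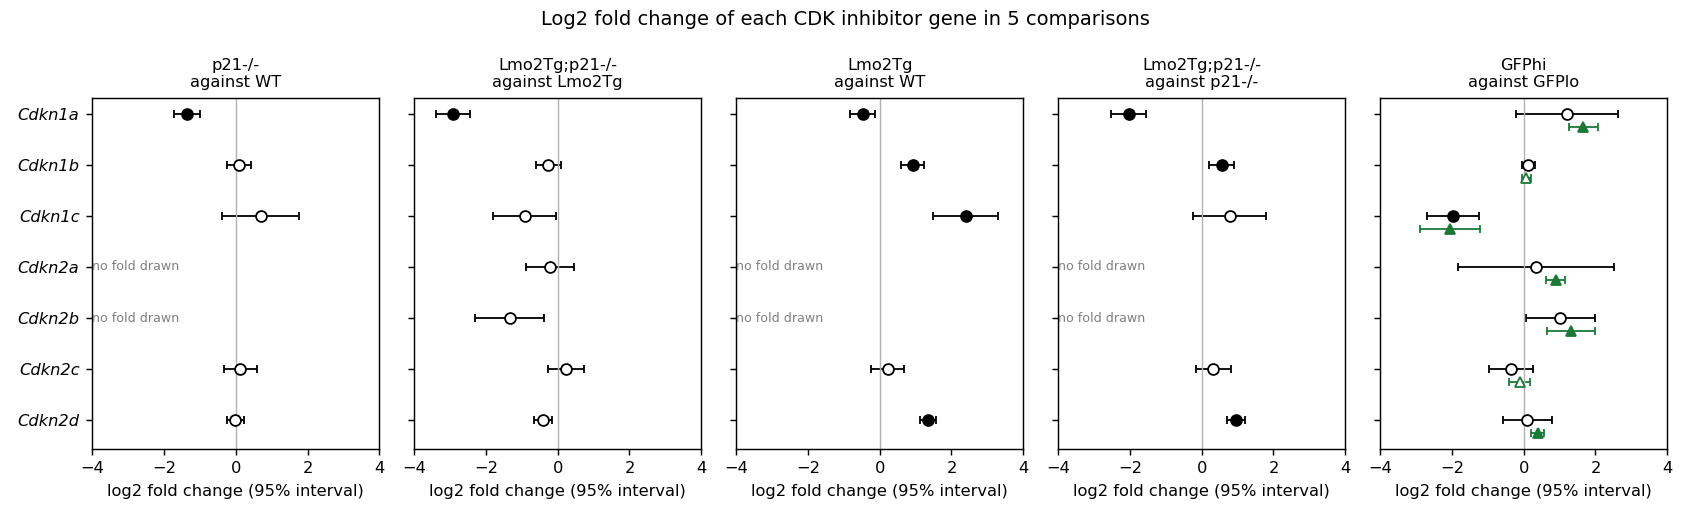
Log2 fold change of each CDK inhibitor gene in 5 comparisons, with 95% intervals from edgeR, where filled symbols mark an adjusted p below 0.05 and green triangles in the last panel give the fit without GFPhi replicate 3. Cdkn1a lies at -1.36 and -2.92 in the p21-loss panels with the other genes nearer 0, and no fold is drawn for Cdkn2a and Cdkn2b against groups with 0 to 3 counts a library.

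Across all genes, 19.7% were called higher and 16.9% lower in Lmo2Tg against WT, and 16.3% higher and 14.4% lower in Lmo2Tg;p21-/- against p21-/-. In the first of these comparisons 5 of the 7 inhibitor genes were called higher (Cdkn1b, Cdkn1c, Cdkn2a, Cdkn2b and Cdkn2d), Cdkn1a lower and Cdkn2c not called. In the second, 4 were called higher (Cdkn1b, Cdkn2a, Cdkn2b and Cdkn2d), Cdkn1a lower and 2 not called. Cdkn1c, Cdkn2a and Cdkn2b reached the filter level in no WT library, so these counts are a description and no support for a direction. Of the 4 genes counted well in every library, Cdkn1b and Cdkn2d were higher and Cdkn2c was not called in both transgene comparisons. Cdkn1a was lower in both, but both groups of the second are p21-deficient, so only residual reads were compared there. The fall of Cdkn1a in Lmo2Tg was -0.47 on the log2 scale (SE 0.161, adjusted p = 0.0402) and lost its call without WT replicate 3 (adjusted p = 0.119) or Lmo2Tg replicate 3 (adjusted p = 0.238). Between the 2 deficient genotypes, residual Cdkn1a was lower with the transgene by -2.03 on the log2 scale (SE 0.218, adjusted p = 5.73e-05).

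Whether the effect of p21 loss on an inhibitor gene differed with the transgene was tested as the difference between the 2 log2 fold changes, for which 0.279% of all genes were called higher and 1.1% lower. Of the 7 genes, Cdkn1a was called. For Cdkn1b the difference was -0.36 (adjusted p = 0.412), for Cdkn1c -1.62 (adjusted p = 0.210), for Cdkn2c 0.10 (adjusted p = 0.891) and for Cdkn2d -0.39 (adjusted p = 0.210). Cdkn2a and Cdkn2b gave no usable difference, because neither was above the floor without the transgene.

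To compare genes with each other, CPM were divided by the exon length of each gene, from 1.17 kb for Cdkn2a to 4.55 kb for Cdkn1b. On this per-length scale the 7 genes summed to 61.2 to 68.7 in WT, 57.4 and 63.1 in p21-/-, 112 and 124 in Lmo2Tg, and 91.3 and 96.8 in Lmo2Tg;p21-/-. Cdkn1b and Cdkn2d were the most abundant in every genotype, with group means of 21.8 and 17.3 in WT and of 41.2 and 43.8 in Lmo2Tg. Cdkn1a made up 17.8% ± 1.96 (SD, n = 3) of the summed level in WT, 7.46% ± 0.633 (n = 2) in p21-/-, 7.10% ± 1.60 (n = 2) in Lmo2Tg and 1.18% ± 0.228 (n = 2) in Lmo2Tg;p21-/-. The Ink4 genes together made up 47.8% ± 4.58 in WT and 57.2% ± 1.77 in Lmo2Tg. Leaving out Cdkn1a, the sum of the other 6 genes was 50.9 to 54.9 in WT and 53.4 and 58.1 in p21-/-, ranges that overlapped, whereas it was 103 and 117 in Lmo2Tg and 90.1 and 95.8 in Lmo2Tg;p21-/-, ranges that did not overlap, with the p21-deficient group lower.

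**Figure D3:**
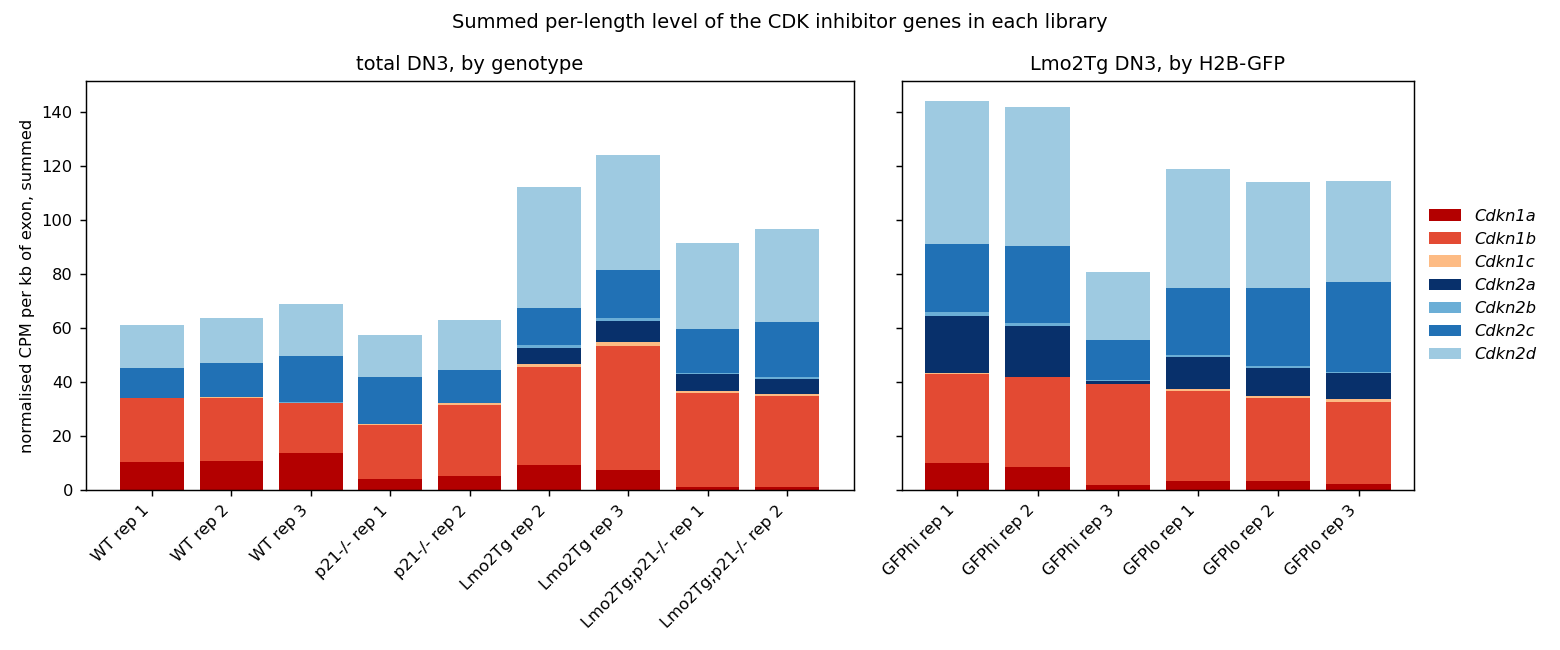
Stacked bars from 0 of normalised CPM per kb of exon for the 7 CDK inhibitor genes in each library (rep, replicate), with Cip/Kip genes in reds and Ink4 genes in blues, and with the 2 experiments in separate panels that were scaled separately. The WT and p21-/- bars end between 57.4 and 68.7, the Lmo2Tg bars at 112 and 124, and the GFPhi replicate 3 bar at 80.6, below the other 5 GFP libraries.

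The GFP experiment compared cells of 1 genotype, Lmo2Tg, that had retained or diluted the label, and asked which inhibitors accompany restricted cycling. Cdkn1a was at 35.8, 29.9 and 6.55 CPM in GFPhi replicates 1, 2 and 3 and at 12.02, 11.1 and 8.08 CPM in GFPlo. GFPhi replicates 1 and 2 were above every GFPlo library and replicate 3 was below every one. With all 6 libraries the log2 fold change of Cdkn1a was 1.21 (95% interval -0.22 to 2.64, adjusted p = 0.207), and without GFPhi replicate 3 it was 1.67 (95% interval 1.26 to 2.07, adjusted p = 0.000624). Without GFPhi replicate 1 or 2 instead it was 0.82 (adjusted p = 0.448) or 1.03 (adjusted p = 0.359). Cdkn2a split in the same way, with 24.6, 22.1 and 1.19 CPM in GFPhi and 14.1, 12.4 and 11.4 CPM in GFPlo. Its log2 fold change was 0.34 (adjusted p = 0.816) with all libraries and 0.90 (SE 0.113, adjusted p = 0.00144) without GFPhi replicate 3. The neighbouring Cdkn2b had 2.06, 1.40 and 0.782 CPM in GFPhi and 0.666, 0.768 and 0.644 CPM in GFPlo. All 3 GFPhi libraries were above GFPlo, replicate 3 by the least. Its log2 difference was 1.02 (adjusted p = 0.129), or 1.32 (adjusted p = 0.0107) without replicate 3.

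**Figure D4:**
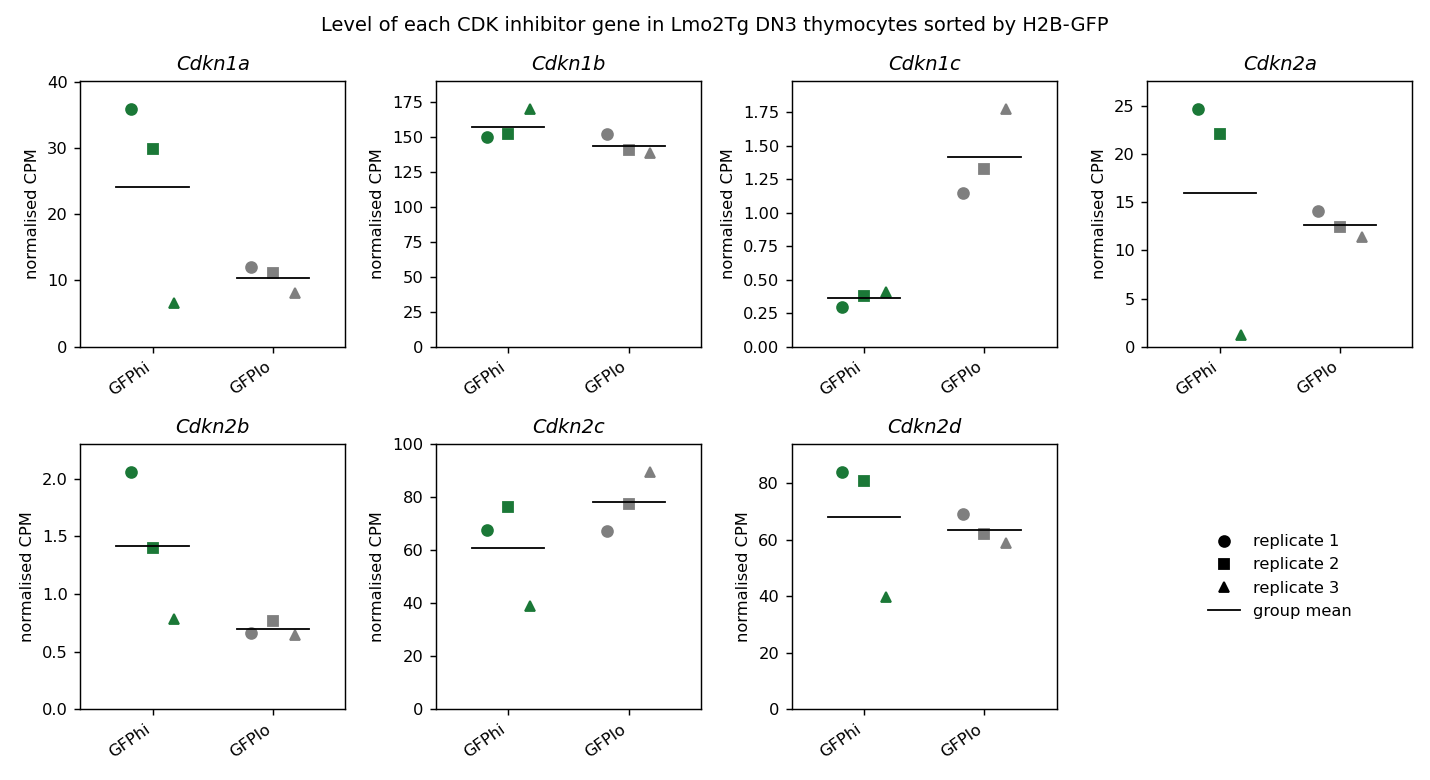
Normalised CPM (linear axis from 0) of the 7 CDK inhibitor genes in GFPhi and GFPlo DN3 libraries of Lmo2Tg mice, with marker shape for the replicate number and a black line for the group mean. GFPhi replicate 3 (triangle) is the lowest of all 6 libraries for Cdkn1a, Cdkn2a, Cdkn2c and Cdkn2d, and GFPhi lies below GFPlo in every library for Cdkn1c.

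Cdkn1c was the 1 inhibitor gene called with all 6 GFP libraries, against 9.49% of all genes called lower and 5.37% called higher. It was at 0.294, 0.375 and 0.410 CPM in GFPhi and 1.15, 1.33 and 1.77 CPM in GFPlo, from 30 counts against 124 in all. It reached the filter level of 0.358 CPM in 3 GFPlo and 2 GFPhi libraries. The gene thus passed the filter through GFPlo, and its call is a description. The groups did not overlap, and its log2 fold change was -1.96 (SE 0.300, adjusted p = 0.0125), a call lost without GFPlo replicate 2 (adjusted p = 0.0749) or GFPlo replicate 3 (adjusted p = 0.0592). Without GFPhi replicate 3 it was -2.06 (adjusted p = 0.00458). The study's results section states that both the GFPhi and the GFPlo cells came from 3 independent cohorts. The labels do not say whether a replicate number marks one. With the replicate number as a block the Cdkn1c value was -1.95 and the call was lost (adjusted p = 0.0530). Cdkn1b was nearly level, at 150, 152 and 170 CPM in GFPhi and 152, 141 and 139 CPM in GFPlo (log2 fold change 0.13, 95% interval -0.05 to 0.30, adjusted p = 0.263). Among the abundant Ink4 genes, Cdkn2d was at 83.9, 81.0 and 39.6 CPM in GFPhi against 69.0, 61.9 and 59.0 CPM in GFPlo, and Cdkn2c at 67.7, 76.3 and 39.1 CPM against 67.3, 77.6 and 89.5 CPM. Both were lowest in GFPhi replicate 3, and neither was called with all libraries (0.11, adjusted p = 0.817, for Cdkn2d and -0.36, adjusted p = 0.368, for Cdkn2c).

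Without GFPhi replicate 3, 19.5% of all genes were called higher and 21.7% lower, and 5 of the 7 inhibitor genes were called: Cdkn1a, Cdkn2a, Cdkn2b and Cdkn2d higher and Cdkn1c lower. Cdkn2d was then higher by 0.39 on the log2 scale (SE 0.0761, adjusted p = 0.00782). Cdkn1b (0.08, 95% interval -0.06 to 0.21) and Cdkn2c (-0.11, 95% interval -0.40 to 0.18) were not called. The median log2 fold change of the 7 genes was 0.13 with all libraries and 0.39 without that library, and over all genes it was 0.02 and 0.01. The other genes of the chromosomes that carry the inhibitor genes had medians from -0.15 (chromosome 17) to 0.10 (chromosome 4) with all libraries. Summed per length, the inhibitor genes reached 144 and 142 in GFPhi replicates 1 and 2, 80.6 in replicate 3 and 114 to 119 in GFPlo. Mki67, a proliferation marker, was at 1051, 1208 and 654 CPM in GFPhi and 949 to 1513 CPM in GFPlo. The 9 B-cell markers in the table summed to 61.9 to 139 CPM in GFPhi and 41.6 to 45.8 CPM in GFPlo, and the early progenitor markers to 288 to 469 CPM against 541 to 610 CPM. The part of these shifts in the inhibitor results was not tested.

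Genes acting around the inhibitors were read from 5 lists with 86 genes in all, of which 45.9% of those tested were called in each of the transgene comparisons, against 36.6% of all genes in Lmo2Tg against WT and 30.7% in Lmo2Tg;p21-/- against p21-/-. Of the p53 list, 23 of 24 genes were tested, and in Lmo2Tg against WT 11 were called higher and 2 lower. Zmat3, a p53-induced RNA-binding protein, rose by 2.39 on the log2 scale (33.9 ± 7.47 CPM, n = 2, against 6.48 ± 1.57 CPM, n = 3, adjusted p = 1.72e-05), and Mdm2, the antagonist of p53, by 0.52 (adjusted p = 0.00508). Pmaip1, the BH3-only protein NOXA, rose by 2.84 and Ccng1, cyclin G1, by 0.41 (adjusted p = 0.00157), whereas Cdkn1a, a target of the same factor, was lower in these libraries. Trp53 itself was at a log2 fold change of -0.28 (adjusted p = 0.0544). In Lmo2Tg;p21-/- against p21-/-, 10 genes of this list were higher and 1 lower, with Zmat3 at 2.77 and Tnfrsf10b, a death receptor, at -1.48.

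Of all genes, 36.6% were called and 16.9% called lower in Lmo2Tg against WT. Among the CDKs, cyclins and CDK-activating genes, 5 of 15 (33.3%) were lower and 0 higher there, with DESeq2 and limma-voom also calling 5. They were Ccnd2, Ccne2 and Cdk4 of the G1 phase, the mitotic cyclin Ccnb1, and Cdk7 of the CDK-activating complex. In Lmo2Tg;p21-/- against p21-/- 8 of 15 (53.3%) were lower, where 30.7% of all genes were called and 14.4% called lower. Among the 8 were the S-phase and mitotic genes Ccna2, Ccnb1, Ccnb2 and Cdk1, besides Ccnd2, Ccne2, Cdk4 and Mnat1. The values of single genes that follow are for Lmo2Tg against WT. Ccnd2, the cyclin partner that Ink4 proteins displace from CDK4 and CDK6, fell by 1.14 on the log2 scale (140 ± 23.0 CPM against 309 ± 12.6 CPM). Cdk4 was lower by -0.31 (adjusted p = 0.0335), and Cdk6, the other kinase bound by Ink4 proteins, was level at 1510 ± 202 CPM against 1527 ± 214 CPM (adjusted p = 0.939). Ccnd3 was at 0.13 (adjusted p = 0.494). Of the pocket proteins and E2F factors, 3 of 13 were higher and 4 lower in Lmo2Tg against WT (53.8% called). Rb1, the retinoblastoma gene, rose by 0.47 (adjusted p = 0.0109) and E2f7, a repressor E2F, fell by 1.03. In Lmo2Tg;p21-/- against p21-/- the count was 2 higher and 6 lower (61.5% called).

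Genes that regulate the inhibitor genes split 10 higher and 2 lower of 24 in Lmo2Tg against WT, and 8 and 2 in Lmo2Tg;p21-/- against p21-/-. These are 50% and 41.7% called, against 36.6% and 30.7% of all genes. Unless another comparison is named, the values of single genes that follow are for Lmo2Tg against WT. Klf2, a quiescence factor of T cells, rose by 3.33 on the log2 scale (58.5 ± 33.1 CPM against 5.86 ± 4.24 CPM), and Id1, an antagonist of E proteins, by 2.81. Myc, which represses Cdkn1a and Cdkn2b, fell by 0.88 (adjusted p = 0.00342). Bmi1, the Polycomb repressor of the Cdkn2a locus, was level at 100 ± 3.75 CPM against 102 ± 1.85 CPM (adjusted p = 0.763), and Cbx7, a subunit of the same complex, rose by 1.46 in Lmo2Tg;p21-/- against p21-/-. Of the 10 genes that degrade p21, p27 and p57, 2 were lower in Lmo2Tg against WT (Skp2 and Skp1a) and 2 in Lmo2Tg;p21-/- against p21-/- (Dtl and Skp1a). That is 20% called in each, below the shares of all genes. Skp2, the F-box protein that targets p27, fell by 0.90 in Lmo2Tg (34.3 ± 3.20 CPM against 63.9 ± 11.7 CPM). On the p21-/- background Skp2 was at -0.24 (adjusted p = 0.298).

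In p21-/- against WT edgeR, DESeq2 and limma-voom each called 0 of the 85 genes tested, where 0.11% of all genes were called, and 5 had an unadjusted p below 0.05. In Lmo2Tg;p21-/- against Lmo2Tg 3 of 85 were called by edgeR (3.53%, against 6.94% of all genes) and 24 had an unadjusted p below 0.05 (28.2%, against 25.5% of all genes). Of the 3, Polk, a translesion polymerase, rose by 0.57, Gadd45a, a stress sensor of the p53 list, fell by 1.38 and Id2, an antagonist of E proteins, fell by 1.95. DESeq2 called 7 and limma-voom 3. In GFPhi against GFPlo 4 of 84 genes were called (4.76%, against 14.9% of all genes), all higher: Btg2, an antiproliferative p53 target, by 0.53, Rnf2, a Polycomb ligase, by 0.34, Mdm4 by 0.28 and Smad2. Without GFPhi replicate 3 the count was 34, these 4 among them (40.5%, against 41.3% of all genes). The p53 list alone then had 14 higher and 3 lower of 23 (73.9% called), led by Pmaip1 at 3.98, Zmat3 at 2.69 and Ccng1 at 1.28. Of all genes, 19.5% were called higher and 21.7% lower in that fit. With all libraries, 2 of the 23 were called. As GFPhi replicate 3 was set apart after its levels were seen, the counts without it are a description. Zmat3 was at 5.55 CPM in GFPhi replicate 3, the lowest of all 6 libraries, where Cdkn1a was lowest too.

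The 12 proliferation markers were read beside the inhibitors. In GFPhi against GFPlo, edgeR and limma-voom called 0 of them with all libraries and DESeq2 called 1, where edgeR called 14.9% of all genes. They summed to 2561 to 4171 CPM in GFPhi, lowest in GFPhi replicate 3, and to 3525 to 4989 CPM in GFPlo, ranges that overlapped. In Lmo2Tg against WT 2 were lower and 0 higher (16.7% called, against 36.6% of all genes). There, 4 had an unadjusted p below 0.05, and DESeq2 called 4 and limma-voom 2. In Lmo2Tg;p21-/- against p21-/- 9 were lower (75% called, against 30.7% of all genes). The 12 markers summed to 4408 to 4655 CPM in WT, 4681 and 5256 CPM in p21-/-, 3754 and 4538 CPM in Lmo2Tg, and 3005 and 3980 CPM in Lmo2Tg;p21-/-. Summed levels of other cell markers differed with the transgene as well. The DN3 markers summed to 10521 to 11386 CPM in the 5 libraries without it and 7750 to 8513 CPM in the 4 with it, the early progenitor markers to 84.1 to 113 CPM and 265 to 474 CPM, the DP and SP thymocyte markers to 51.1 to 75.0 CPM and 113 to 145 CPM, and the B-cell markers to 55.6 to 68.2 CPM and 32.5 to 38.1 CPM. Thymic stroma markers summed to 179 to 203 CPM without the transgene and 216 to 279 CPM with it, with 4 to 6 of the 9 counted in a library. The part of these marker shifts in the levels of Cdkn2a, Cdkn2b, Cdkn1b and Cdkn2d was not tested.

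Genes whose log2 CPM followed each inhibitor most closely were listed as a description, over 9 libraries that share genotype groups and over 6 that share GFPhi replicate 3. In the genotype table these were Nt5c2 (r = 0.994), Slc40a1 and Tnk2 for Cdkn2a, Otud5 (0.989), Tuba1a and Faxc for Cdkn2b, and Arl1 (0.992), Tuba1a and Bbc3 for Cdkn2d. For Cdkn1b they were Fam134b (0.982), Abi1 and Usp3, for Cdkn1c Kansl1 (0.971), Pim1 and Smurf2, for Cdkn1a Pdcd5 (0.951), Tamm41 and Ctla4, and for Cdkn2c Napepld (0.938), Slc35f6 and BC022687. Cdkn2c thus had the weakest best match of the 7. In the GFP table the leading genes were Snai3 for Cdkn1a (0.996), Aup1 for Cdkn1b (0.996), Mtch1 for Cdkn1c (0.998), Reep5 for Cdkn2a (0.999), Nt5c3 for Cdkn2b (0.988), Mcm4, a replicative helicase subunit, for Cdkn2c (0.997) and P2rx7 for Cdkn2d (0.999).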

How the data were processed

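RNA was captured by poly-A selection and sequenced by the authors, and the deposited values are raw read counts per gene. Per the labels and the submitters' processing notes, reads were aligned to mm10 with STAR 2.4.2a and counted with featureCounts; limma is also named there. Of 16 samples in the labels, 15 libraries were used: the sample p21-/- replicate 3 had no matching column, and 1 column, named as Lmo2Tg;p21-/- replicate 3, matches no label and was not used, so the labels of the p21-deficient libraries rest on their column names. Columns for Lmo2Tg name the group, so their replicate numbers only name them. Where no source says otherwise, p-values measure the spread between pools. Genes were filtered (filterByExpr, minimum count 10, total 15), TMM-scaled and tested with edgeR 4.0.16 quasi-likelihood fits of all 6 GFP or all 9 genotype libraries. Benjamini-Hochberg adjusted p below 0.05 over all genes counted as called. SE is the log2 fold change divided by the root of the F statistic, and 95% intervals use its degrees of freedom. DESeq2 1.42.0 and limma 3.58.1 (voom) were alternatives, checked on simulated data. Gene names in the lists other than the 7 inhibitors were printed by rule: the 3 largest called changes per direction with a mean of at least 1 CPM, 11 genes by name, and the 3 closest by Pearson r of log2 CPM (prior count 2); Smad2, Skp1a, Dtl and the called CDK and cyclin genes, and genes the rule picks in 1 comparison but printed for another, were named after their values were seen. Annotation came from GENCODE M21 (21721 of 22114 identifiers matched). Members and lists were chosen with earlier results of these data known. Counting intervals cover counting error only.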

Additional observations from a re-analysis of the deposited data

Results flagged for a closer look

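The effect of p21 loss on Cdkn1a counts differed between the transgenic and non-transgenic libraries by a test of the difference itself, with a log2 value of -1.56 (SE 0.271, adjusted p = 0.0319, edgeR). Cdkn1a was at 14.3 and 17.7 CPM in the libraries labelled p21-/- and at 4.35 and 3.50 CPM in those labelled Lmo2Tg;p21-/-, with no overlap. The call was lost in 7 of the 9 fits without 1 library and under limma-voom. The numerical screen for a single outlying sample was not run, since it is not defined for groups of 2 or 3 libraries. GFPhi replicate 3 was set apart by its levels, and its chi-square per gene was 115 and 134 against the other 2 GFPhi libraries, which differed from each other by 7.60.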

How the results depend on the processing

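The cause of each change below was not tested. Of 437 alternative values for 38 results on single inhibitor genes, 390 kept their direction and side of the threshold, 18 lost the call, 10 gained one and 19 changed sign, none of these 19 being called. In GFPhi against GFPlo the count of inhibitor genes called was 0 with a mean of at least 1 CPM, with the replicate block and at more than 2-fold with adjusted p below 0.01, and the pathway count was 18 with DESeq2, 1 with the block and 0 at that fold. Without 1 library at a time these counts were 0 to 5 and 0 to 34, and the log2 fold change of Cdkn1a was 0.82 to 1.67. In Lmo2Tg;p21-/- against Lmo2Tg 2 inhibitor genes were called with RLE, no filter, 1 CPM, DESeq2 or limma-voom, and 8 pathway genes with no filter and 7 with DESeq2. At more than 2-fold, 11 pathway genes were called in Lmo2Tg against WT, and 3 inhibitor and 8 pathway genes in Lmo2Tg;p21-/- against p21-/-. For the difference of p21 loss between backgrounds, limma-voom called 0 inhibitor genes, and no filter and DESeq2 called 5 and 3 pathway genes. Without 1 library, p21-/- against WT called 0 to 1 inhibitor genes, the difference 0 to 1 with 0 to 3 pathway genes, and pathway counts were 0 to 2, 24 to 34 and 17 to 35 in Lmo2Tg;p21-/- against Lmo2Tg, Lmo2Tg against WT and Lmo2Tg;p21-/- against p21-/-, lowest without Lmo2Tg;p21-/- replicate 1, Lmo2Tg replicate 2 and Lmo2Tg;p21-/- replicate 1.

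Signs turned for Cdkn2a in GFPhi (-0.48 with limma-voom, -0.11 to 0.90 without 1 library) and Cdkn2d (-0.063 to 0.39 without 1 library). In p21-/- against WT, leaving out 1 library gave -0.12 to 0.27 for Cdkn1b, -0.29 to 1.29 for Cdkn1c, -0.15 to 0.36 for Cdkn2c and -0.14 to 0.10 for Cdkn2d. Cdkn2c ranged from -0.0056 to 0.43 in Lmo2Tg against WT, and from -0.12 to 0.38 in the difference of p21 loss between backgrounds.

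Replicate numbers were not treated as pairing, since neither the labels nor the study's methods say that they pair libraries. Same-numbered libraries had deviation correlations of 0.157, -0.104 and 0.037 in the GFP table and -0.378 and 0.399 between WT and p21-/-. With 2 p21-/- libraries the deviations mirror each other, so the last 2 values cannot show pairing or its absence. With the replicate block, Cdkn2a was at -0.28 in GFPhi, and Cdkn1b at -0.032 and Cdkn2d at 0.062 in p21-/- against WT. A block for Lmo2Tg;p21-/- against p21-/-, chosen after seeing the data, called 4 inhibitor and 50 pathway genes. Depth limited Cdkn2a and Cdkn2b without the transgene.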
